A study of Rattus norvegicus with 8 samples.

Results

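Pax7 and the myogenic regulatory factors Myf5, Myod1, Myog and Myf6 were followed in rat diaphragm after an infarction of the heart. The genes were chosen by symbol, and all 5 were found among the 17055 rows of the count table and among the 10522 genes that passed a filter on low counts. Diaphragm was taken from 8 Sprague-Dawley rats 16 weeks after surgery, and each animal gave 1 RNA-seq library. In the MI group (replicates 1 to 4) the left anterior descending coronary artery had been tied to cause a myocardial infarction, and in the Sham group (replicates 5 to 8) the chest was opened in the same way without the tie. No genetic change was described for either group, and the labels state no age of the animals at surgery. Library totals ran from 7941402 to 24967251 counts, and Sham replicate 7 was the deepest library.

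Satellite cells are the stem cells of skeletal muscle, lying between the fibre and its basement membrane, and Pax7 is the transcription factor that marks them. When they are activated, Myf5 and Myod1 (MyoD) commit them to the muscle lineage, Myog (myogenin) drives differentiation and fusion, and Myf6 (MRF4) becomes the prevailing member of the family in mature fibres. Myf5, Myod1, Myog and Myf6 are basic helix-loop-helix proteins that pair with E proteins and bind E-boxes in the control regions of muscle genes. Nuclei of adult fibres also express some of them: Myod1 is known to be higher in fast and Myog in slow fibres.

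The bases upstream of the transcription start are shown for 3 members, Myf5 and Myog because their levels came closest to varying together between animals, and Myf6 because it is the protein-coding gene next to Myf5. They were taken from RefSeq on the GRCr8 assembly (the submitters' processing notes name the older rn5), which held such an entry for 4 of the 5 members (not Myod1), and each runs 5′ to 3′ on the gene's strand up to the last base before the start. Capitals mark E-boxes (CANNTG, the same pattern on both strands) and, in Myf6, a match to the consensus of the muscle factor MEF2. The MEF2 consensus was the strict pattern YTAWWWWTAR (Y is C or T, W is A or T, R is A or G), searched on both strands. None of the marked matches overlapped.
Myf5 (chr7:44692639-44692888, minus strand): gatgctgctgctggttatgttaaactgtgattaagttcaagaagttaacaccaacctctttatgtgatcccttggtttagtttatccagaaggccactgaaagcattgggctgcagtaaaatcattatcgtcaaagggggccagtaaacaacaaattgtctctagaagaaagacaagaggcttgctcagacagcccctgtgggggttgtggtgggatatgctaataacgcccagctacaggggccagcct
Myog (chr13:48297226-48297475, plus strand): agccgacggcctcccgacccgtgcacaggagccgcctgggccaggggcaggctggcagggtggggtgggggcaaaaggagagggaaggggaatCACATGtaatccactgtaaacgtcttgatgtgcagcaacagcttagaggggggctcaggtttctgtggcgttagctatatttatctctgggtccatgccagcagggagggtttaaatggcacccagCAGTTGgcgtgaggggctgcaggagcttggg
Myf6 (chr7:44701314-44701563, minus strand): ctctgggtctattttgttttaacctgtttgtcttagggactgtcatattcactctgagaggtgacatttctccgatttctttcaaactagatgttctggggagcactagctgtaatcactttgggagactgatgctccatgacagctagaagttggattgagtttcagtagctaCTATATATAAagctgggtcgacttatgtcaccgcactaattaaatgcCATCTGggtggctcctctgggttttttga
The Myog window held 2 E-boxes, CACATG beginning 157 bases and CAGTTG beginning 31 bases before the start. Its unmarked stretch ctatatttat missed the strict MEF2 pattern only at the last base. The Myf6 window held 1 E-box, CATCTG beginning 29 bases before the start, and the MEF2 match CTATATATAA beginning 76 bases before it. No E-box was found in the Myf5 window or in that of Pax7. Of 33469 RefSeq windows of the same length, 65.5% held at least 1 E-box, 30.8% at least 2 and 2.96% a MEF2 match, so E-boxes here are common and the matches are descriptions of the letters only.

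MI was set against Sham to see whether transcripts of these regulators differ in a breathing muscle that remodels after heart damage. None of the 5 genes passed the test of the difference. In edgeR's quasi-likelihood test, 0 of 5 members had an adjusted p under 0.05, against 0.00% of all genes tested (0 of 10522). At an unadjusted p under 0.05 there were 0 of 5 members, where 8.14% of all genes (856) fell, 3.67% higher and 4.47% lower in MI. MI and Sham values overlapped for all 5 members, where 4.55% of all genes did not overlap. DESeq2 also called 0 of 5 members, against 0.133% of all genes. Log2 fold changes were below 0 for 4 of 5 members and for 51.3% of all genes, and the median was -0.24 over the members and -0.00702 over all genes. In whole tissue, fewer cells of a type and less RNA per cell cannot be told apart.

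Pax7, the satellite cell marker, was close to the limit of counting. Its levels were 0.401, 1.28, 0.847 and 0.576 CPM (counts-per-million, with edgeR's TMM scaling) in MI replicates 1 to 4, from 6, 21, 10 and 5 reads. In Sham replicates 5 to 8 they were 0.732, 0.901, 1.35 and 1.35 CPM, from 10, 14, 35 and 11 reads. MI replicates 1 and 4 lay below every Sham library and MI replicate 2 lay near the top of the Sham range, so the groups overlapped. The exact 95% Poisson interval, which covers counting error only, ran from 0.147 to 0.872 CPM in MI replicate 1 and from 0.676 to 2.42 CPM in Sham replicate 8. Mean levels were 0.777 ± 0.385 CPM in MI and 1.08 ± 0.317 CPM in Sham (SD, n = 4 each). The log2 fold change was -0.44 ± 0.40 (SE, as for every fold change here), with an edgeR adjusted p of 0.757. The 95% interval of the fold ran from 0.401 to 1.35. The value was -0.21 without MI replicate 1, -0.28 without Sham replicate 7 and -0.85 without MI replicate 2.

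Myf5, a commitment factor of satellite cells and myoblasts, had nearly the same mean in both groups. It stood at 17.1, 14.4, 12.0 and 11.1 CPM in MI replicates 1 to 4 and at 13.8, 12.7, 9.41 and 16.5 CPM in Sham replicates 5 to 8. The highest libraries were MI replicate 1 and Sham replicate 8, and the lowest was Sham replicate 7. Means were 13.7 ± 2.70 and 13.1 ± 2.93 CPM (SD, n = 4 each), or 0.08 ± 0.19 in log2 (edgeR adjusted p = 0.91), and a 95% interval of the fold from 0.794 to 1.41. The sign turned without MI replicate 1 (-0.052) or Sham replicate 7 (-0.064), and with a term for the range of animal numbers (-0.015).

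Myod1, which commits cells to the muscle lineage and opens muscle genes, was lower in 3 of the 4 MI animals than in any Sham animal. It stood at 13.1, 17.1, 30.05 and 11.9 CPM in MI replicates 1 to 4 and at 18.6, 27.2, 25.9 and 25.1 CPM in Sham replicates 5 to 8. MI replicate 3 was the exception and had the highest value of all 8 libraries. Means were 18.0 ± 8.32 CPM in MI and 24.2 ± 3.82 CPM in Sham (SD, n = 4 each). The difference of -0.42 ± 0.28 on the log2 scale did not pass (edgeR adjusted p = 0.689), and the 95% interval of the fold ran from 0.482 to 1.15. The value was -0.78 without MI replicate 3 (adjusted p = 0.488) and -0.28 without MI replicate 4, and the adjusted p ranged from 0.488 to 0.906 over the alternatives. The animal numbers in the labels fall in a low range (MI replicates 1 and 2, Sham replicate 5) and a high range (MI replicates 3 and 4, Sham replicates 6, 7 and 8). Within the low range Myod1 averaged 15.1 CPM in MI against 18.6 in the single Sham animal, and within the high range 21.0 against 26.0 CPM. With the range as a term its log2 fold change was -0.30 (edgeR adjusted p = 0.85).

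Myog, the differentiation factor, varied more between animals of a group than between the groups. It stood at 53.0, 28.5, 42.1 and 23.5 CPM in MI replicates 1 to 4 and at 40.3, 31.5, 26.0 and 63.7 CPM in Sham replicates 5 to 8. Sham replicate 8 and MI replicate 1 were the highest, and the highest library exceeded the lowest by 2.26 times within MI and by 2.45 times within Sham. Means were 36.8 ± 13.4 and 40.4 ± 16.6 CPM (SD, n = 4 each). The log2 difference was -0.12 ± 0.34 (edgeR adjusted p = 0.934), with a 95% interval of the fold from 0.539 to 1.58. The sign turned without Sham replicate 8 (0.18) or MI replicate 4 (0.043).

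Myf6, the factor of mature fibres, gave the most reads and the narrowest interval. It stood at 314.1, 249.7, 277.1 and 206.3 CPM in MI replicates 1 to 4 and at 299.4, 353.9, 319.5 and 259.9 CPM in Sham replicates 5 to 8. MI replicates 2 and 4 lay below every Sham library, and MI replicates 1 and 3 lay within the Sham range. Means were 261.8 ± 45.4 and 308.2 ± 39.3 CPM (SD, n = 4 each). The log2 difference was -0.24 ± 0.13, with the smallest p of the 5 members (edgeR unadjusted p = 0.105, adjusted p = 0.645). The 95% interval of the fold ran from 0.693 to 1.04. The value was -0.14 without MI replicate 4 and -0.155 without Sham replicate 6. CPM levels were not compared between genes, because no transcript lengths were at hand.

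**Figure D1:**
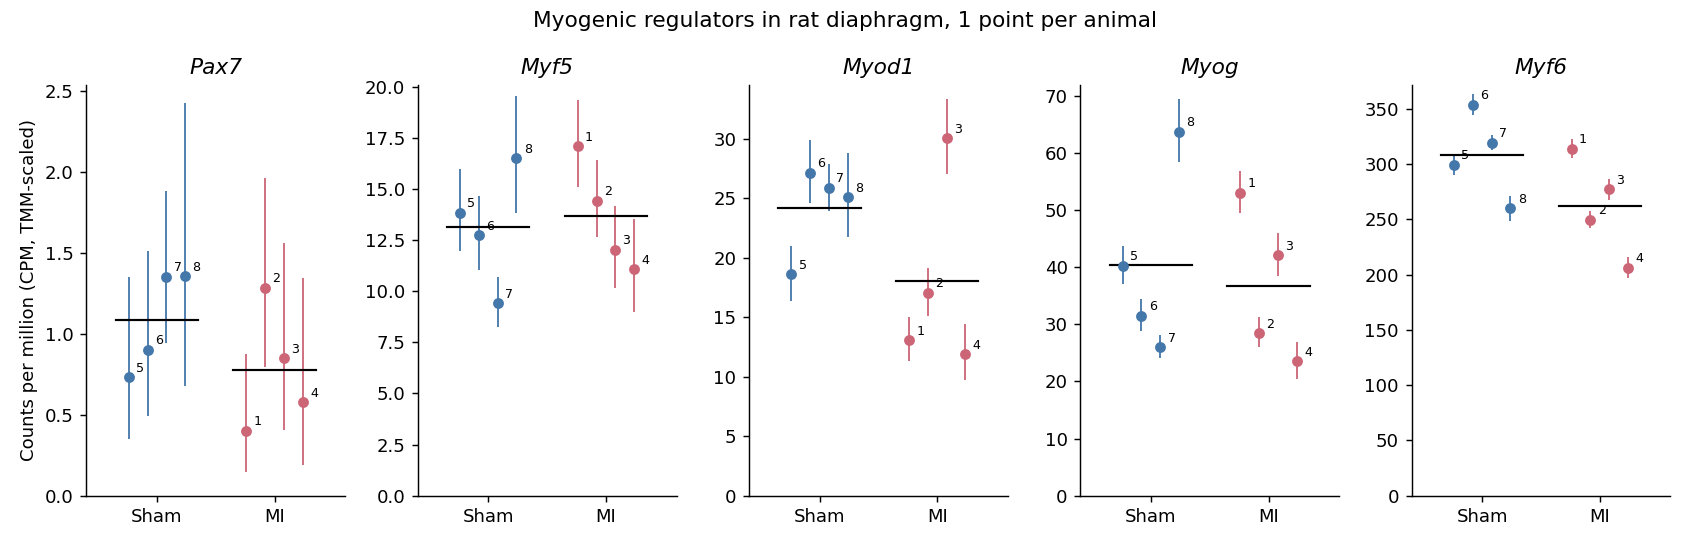
Levels of Pax7, Myf5, Myod1, Myog and Myf6 in CPM (vertical axes from 0, a scale for each gene) in Sham (blue) and MI (red) animals, with points numbered by replicate, bars for the exact 95% Poisson counting interval and black lines for group means. MI and Sham points overlap in every panel, and the spread between animals is wider than the counting intervals for Myf5, Myod1, Myog and Myf6.

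**Figure D2:**
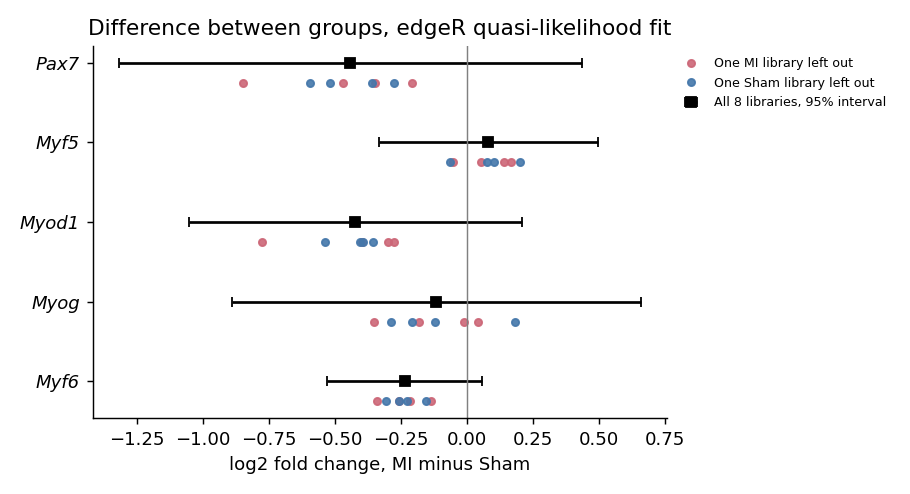
Log2 fold change of MI over Sham for each member, with squares for the fit on all 8 libraries, bars for its 95% interval, and circles for fits with 1 MI (red) or 1 Sham (blue) library left out. All 5 intervals include 0, and circles fall on both sides of 0 for Myf5 and Myog.

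The spread between animals differed among the members and was larger for Myog and Myod1 than for most genes of like abundance. For Myog the coefficient of variation between animals was 36.4% in MI and 41.2% in Sham, where counting alone gave 5.08% and 4.26%. For Myod1 it was 46.2% in MI and 15.8% in Sham, against 7.28% and 5.63% from counting. Myf6 (17.35% and 12.74%) and Myf5 (19.76% and 22.32%) also spread more than counting gave, which was 1.818% and 1.597% for Myf6 and 8.0% and 7.4% for Myf5. Pax7 was different: its coefficients of 49.5% and 29.2% stood beside 35.9% and 27.0% from counting, so much of its spread is of the size that few reads give. The biological coefficient of variation that edgeR estimated within groups was 33.0% for Myog and 27.6% for Myod1, where the median of the 500 genes nearest in mean level was 12.2% and 13.6%. Of those 500 genes, 98.4% lay below Myog and 94.8% below Myod1. The estimate was 19.1% for Myf5, 14.7% for Myf6 and 29.3% for Pax7, with 83.2%, 85.2% and 61.2% of the genes nearest to each below it.

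**Figure D3:**
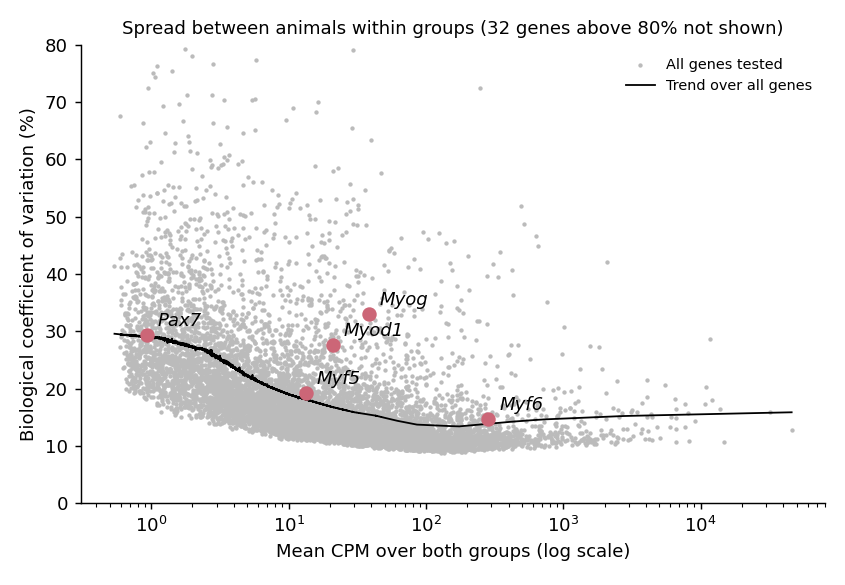
Biological coefficient of variation within groups (percent) against mean CPM (log scale) for the genes tested (grey), the trend over them (black line) and the 5 members (red), with 32 genes above 80% not shown. Myog at 33.0% and Myod1 at 27.6% lie farther above the trend than Pax7, Myf5 and Myf6 do.

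Ratios between members within a library depend little on how the library is scaled, and 4 of them were compared between the groups. Myog to Myod1, a ratio of differentiation to commitment factor, had a mean of 1.05 ± 0.67 on the log2 scale in MI and 0.67 ± 0.65 in Sham (SD, n = 4 each). The difference of 0.38 had an exact two-sided permutation p of 0.457 (adjusted p = 0.61 over the 4 ratios), and 0.0286 is the smallest p that 70 arrangements allow. MI replicate 1 had the highest ratio at 2.01, and Sham replicate 7 the lowest at 0.01. Myf5 to Pax7 differed by 0.54 (exact p = 0.4), Myf6 to Myod1 by 0.26 (exact p = 0.457) and Myod1 to Pax7 by -0.03 (exact p = 0.886), all with n = 4 animals a group and adjusted p of at least 0.61. Without MI replicate 1 the differences were 0.064 for Myog to Myod1, 0.202 for Myf5 to Pax7 and 0.051 for Myf6 to Myod1.

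Among the 10 pairs of members, Myf5 and Myog had the closest relation over the 8 animals, though it did not pass adjustment. Pearson's r of log2 CPM was 0.78 (exact permutation p = 0.0232, adjusted p = 0.232 over the 10 pairs) and Spearman's rho was 0.74 (exact permutation p = 0.0458, adjusted p = 0.458). Without the 2 animals farthest from the median of Myf5, MI replicate 1 and Sham replicate 7, r was 0.71. The deviations from the group means gave 0.81, and leaving out each library gave 0.716 to 0.885. Pax7 and Myod1 followed with r = 0.65 (exact permutation p = 0.0874, adjusted p = 0.437) and rho = 0.50 (exact permutation p = 0.216, adjusted p = 0.721), and r fell to 0.45 without MI replicate 1 and Sham replicate 8. The neighbouring genes Myf5 and Myf6 gave no relation past the test (r = 0.03, exact permutation p = 0.937, rho = -0.07, exact permutation p = 0.882), nor did Myod1 and Myog (r = 0.18, exact permutation p = 0.658, rho = 0.24, exact permutation p = 0.582). The other 6 pairs had adjusted p of at least 0.69 for both coefficients.

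Muscle genes whose levels followed Myog and Myod1 were sought in 2 of the lists, differentiation and developmental genes and myofibre markers, with 35 genes tested between them. This was done after values had been seen, so the coefficients over the 8 libraries are descriptions with no test. The genes closest to Myog were Chrnb1, a subunit of the acetylcholine receptor (r = 0.91, rho = 0.83), Cav3, the caveolin of muscle (r = 0.90, rho = 0.95), and Sln, sarcolipin, a small inhibitor of the calcium pump (r = 0.88, rho = 0.93). Sln stood at 1116, 297.9, 483.8 and 234.6 CPM in MI replicates 1 to 4 and at 341.1, 369.5, 327.1 and 753.5 CPM in Sham replicates 5 to 8. Its 2 highest libraries, MI replicate 1 and Sham replicate 8, were also the 2 highest for Myog and for Myf5. Without MI replicate 4 and Sham replicate 8 the r with Myog was 0.82 for Chrnb1, 0.77 for Cav3 and 0.84 for Sln. Of all 10521 other genes tested, 0.105%, 0.171% and 0.257% had an r with Myog at least as high as these 3.

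The genes closest to Myod1 were others. Cacna1s, the channel-forming part of the dihydropyridine receptor, had r = 0.94 and rho = 0.95, and Des, desmin, the intermediate filament of muscle, had r = 0.90 and rho = 0.86. Next came Myh8, the neonatal myosin, with r = 0.85 and rho = 0.90, and r = 0.74 without MI replicates 1 and 4. Cacna1s stood at 337.1, 391.9, 464.6 and 295.3 CPM in MI replicates 1 to 4 and at 414.1, 495.8, 441.9 and 411.6 CPM in Sham replicates 5 to 8. Its lowest libraries were MI replicates 4 and 1, as for Myod1, and without those 2 libraries r was 0.80 for Cacna1s and 0.74 for Des. Of all other genes tested, 0.257% had an r with Myod1 at least as high as Cacna1s, 0.684% as Des and 2.16% as Myh8. The r with Myog was 0.12 for Cacna1s and -0.03 for Des, and the r of Sln with Myod1 was 0.04. Over the 35 genes the median r was 0.09 with Myog and 0.21 with Myod1, against -0.01 and 0.00 over all genes, so the lists as a whole followed neither factor closely. At the other end, the adhesion gene Jam2 ran against Myog (r = -0.82, rho = -0.93) and Chrna1 ran against Myod1 (r = -0.79, rho = -0.69). Without MI replicate 4 and Sham replicate 8 the r of Jam2 with Myog was -0.66. Without MI replicates 1 and 4 the r of Chrna1 with Myod1 weakened to -0.39.

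**Figure D4:**
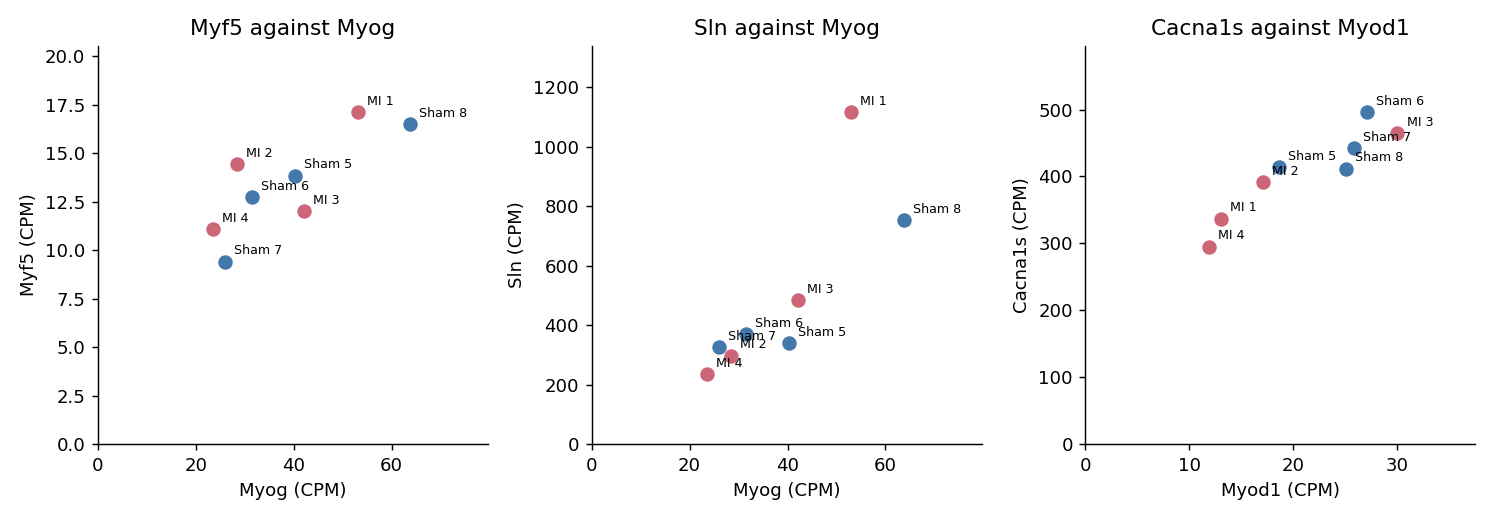
Levels in CPM of Myf5 against Myog, of Sln against Myog and of Cacna1s against Myod1, 1 point per animal, red for MI and blue for Sham. MI replicate 1 and Sham replicate 8 are at the upper right for both Myf5 and Sln, and MI replicates 1 and 4 are at the lower left for Cacna1s.

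Over all genes with a mean of at least 10 CPM, the 3 most similar to each member across the 8 libraries were named by rule, as a description. They were the highest of 6614 candidates (6615 for Pax7), so a high r follows from the choice. Closest to Myog were Med24 (r = 0.972), Dok5 (0.969) and Fxyd6 (0.949), and closest to Myod1 were Wbscr22 (0.973), Fuz (0.965) and Dohh (0.964). For Myf5 they were Slc35d1 (0.947), Gskip (0.938) and Pigw (0.93), and for Myf6 they were Tp63 (0.966), Nr4a1 (0.955) and LOC683722 (0.938). For Pax7 they were Nol3 (0.982), Cbx6 (0.978) and Tpcn1 (0.976), over libraries in which Pax7 had 5 to 35 reads. No gene was among the 3 closest for more than 1 member.

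Among 26 markers and niche receptors of satellite cells, 22 were tested and 0 passed in either direction. Of these, 6 had a log2 fold change above 0 and 16 below with a median of -0.096, where 51.3% of all genes were below 0. Sdc3, syndecan 3, was at 8.82 ± 1.91 CPM in MI and 11.7 ± 0.897 in Sham (SD, n = 4 each), or -0.40 ± 0.16 in log2 (edgeR adjusted p = 0.601). Met, the receptor for hepatocyte growth factor, had -0.28 ± 0.13 and the tetraspanin Cd82 -0.40 ± 0.19 (edgeR adjusted p = 0.616 for both). Pax3, the paralogue of Pax7, lay in the other direction at 8.93 ± 1.68 against 7.58 ± 2.47 CPM (0.27 ± 0.22, edgeR adjusted p = 0.738). Cd34 is listed at 0 in every library, and whether its transcript was absent or was not counted was not tested. Cd82 was at -0.195 without Sham replicate 8, and Pax3 at 0.156 without Sham replicate 7 and 0.494 without Sham replicate 8.

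Notch signalling holds satellite cells in quiescence, and of 16 tested genes of this list 3 were above 0 and 13 below. The median was -0.097 with 0 calls, where 51.3% of all genes were below 0. The receptor Notch1 was at 18.8 to 22.6 CPM in MI and at 23.9 to 25.6 CPM in Sham. All 4 MI values lay below the 4 Sham values, as happened for 4.55% of all genes in one direction or the other. Its log2 fold change of -0.27 ± 0.09 did not pass (edgeR adjusted p = 0.601). The ligand Dll1 had -0.47 ± 0.21 and Notch3 -0.34 ± 0.21 (edgeR adjusted p = 0.607 and 0.676), the latter -0.214 without MI replicate 1 and -0.561 without MI replicate 2. Notch3 is also in the list of pericyte and smooth muscle markers, and which cells gave the transcripts of this list was not tested.

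Partners and inhibitors of the myogenic factors gave no call either. Of 27 listed partners and cofactors, 22 had a row and 21 were tested. Among those tested, 9 were above 0 and 12 below, with a median of -0.013. Carm1, an arginine methyltransferase that serves as coactivator, had -0.40 ± 0.16, and Mef2d, a MEF2 factor, -0.39 ± 0.17 (edgeR adjusted p = 0.601 for both). Rb1, the retinoblastoma gene needed for cell cycle exit, had 0.21 ± 0.10 with MI values all above Sham (edgeR adjusted p = 0.608), and 0.13 without Sham replicate 8. The groups did not overlap for 4.55% of all genes, in one direction or the other. Of 16 tested inhibitors, 7 were above 0 and 9 below, with a median of -0.043, led by the repressor Snai1 (-0.52 ± 0.24) and the class II histone deacetylases Hdac9 (0.27 ± 0.13) and Hdac5 (-0.31 ± 0.15), at edgeR adjusted p of 0.61, 0.625 and 0.626. Hdac5 was at -0.196 without MI replicate 1.

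Genes of differentiation, fusion and developing fibres showed 9 of 22 tested members above 0, 13 below, a median of -0.034 and 0 calls. The embryonic myosin Myh3 was at 131.5 ± 40.5 against 134.2 ± 13.5 CPM and the neonatal myosin Myh8 at 43.2 ± 17.2 against 50.2 ± 16.4 CPM (SD, n = 4 each), with log2 fold changes of -0.03 ± 0.23 and -0.22 ± 0.31 (edgeR adjusted p = 0.977 and 0.856). The sign for Myh3 turned without MI replicate 1, without Sham replicate 7, or when animal number range was added to the model, and that for Myh8 without Sham replicate 6. The receptor subunit genes Chrng, of the fetal acetylcholine receptor, and Chrna1 had 0.91 ± 0.34 and 0.36 ± 0.16 (edgeR adjusted p = 0.601 and 0.608), Chrng from 9 to 29 reads a library. Jam2, an adhesion molecule, had 0.15 ± 0.12 (edgeR adjusted p = 0.74), with 0.069 to 0.232 when libraries were left out, the lowest without MI replicate 2 and the highest without MI replicate 3. The fusion gene Mymk, listed under its older symbol Tmem8c, failed the filter with 1, 25, 2 and 0 reads in MI replicates 1 to 4 and 3, 4, 3 and 5 in Sham replicates 5 to 8, so 25 of the 28 MI reads came from MI replicate 2.

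Denervation raises Myog and several of its targets, and of 18 tested genes of that list 8 were above 0 and 10 below, with a median of -0.013 and 0 calls. Its smallest p values belonged to Trim63, Runx1 and Chrng, the last of which lay above 0 as given before. Trim63, the ubiquitin ligase MuRF1, had -0.46 ± 0.07 (edgeR adjusted p = 0.286, and called by DESeq2 with adjusted p = 1.36e-05). Runx1, a factor induced by denervation, had -0.69 ± 0.30 (0.586 ± 0.0776 against 0.936 ± 0.145 CPM, edgeR adjusted p = 0.603). For both genes all MI values lay below the Sham values, where 4.55% of all genes did not overlap in one direction or the other. For Runx1 this rests on few reads. It ran from 0.489 to 0.677 CPM in MI and from 0.805 to 1.12 CPM in Sham, where 3 reads correspond to 0.116 to 0.369 CPM. Cell cycle genes, which rise when cells divide, satellite cells among them, had 7 of 22 above 0, 15 below, a median of -0.036 and 0 calls. Of all genes 51.3% were below 0, and which cells gave these transcripts was not tested. The proliferation marker Mki67 was at 1.66 ± 0.563 against 2.62 ± 0.656 CPM (-0.71 ± 0.29, edgeR adjusted p = 0.601), Top2a at -0.79 ± 0.47 (0.658) and Pcna at 0.18 ± 0.10 (0.643). Top2a was at -0.331 without Sham replicate 7 and -0.477 without MI replicate 1. Both Mki67 (3.39 CPM) and Top2a (2.39 CPM) were highest in Sham replicate 7. Top2a was at 0.267 CPM in MI replicate 1, where 3 reads correspond to 0.2 CPM.

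Defining genes of skeletal fibres were abundant in every library, with 15 tested genes (4 above 0, 11 below) summing to 131000 to 176000 CPM in MI and 148000 to 177000 in Sham. MI replicate 4, which had the lowest Myod1, Myog and Myf6, also had the lowest fibre sum (130700 CPM), the highest sum of fibroblast markers (4665 CPM against 2955 to 3660 in the other libraries) and the highest sum of adipocyte markers (409.6 against 162.3 to 237.9 CPM). Without that library the log2 fold changes of Myod1, Myog and Myf6 were -0.28, 0.043 and -0.14, and the part of these other cells in the levels was not tested. Fibroblast markers had 5 of 11 tested genes above 0, endothelial markers 6 of 10 and pericyte and smooth muscle markers 4 of 10. Schwann cell markers had 5 of 6 above 0, with sums of 129 to 168 CPM in MI and 98.6 to 136 in Sham. Macrophage and lymphocyte markers had 0 of 10 above 0, with sums of 84.0 to 136 CPM in MI and 85.2 to 205 in Sham, the highest in Sham replicate 7. Cardiac markers had 4 of 6 above 0 (107 to 174 against 41.7 to 149 CPM), adipocyte markers 4 of 5, mesothelial markers 0 of 4 (50.4 to 224 against 140 to 300 CPM) and tendon markers 1 of 4. Among these lists the atrial gene Myl7 and the brown fat gene Ucp1 were listed at 0 in every library, and whether they were absent or not counted was not tested.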

How the data were processed

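Diaphragm RNA of 8 animals was sequenced from SMARTer cDNA libraries, per the labels' protocols. The deposited table holds raw read counts per gene symbol, and the submitters' processing notes name bcl2fastq, STAR 2.5.0a, TopHat2, TopHat and Cufflinks with build rn5. Which program counted, and on which annotation, is not given in the sources used here. Groups came from the labels, where each animal has its own number and no batch or pairing is stated. If libraries were not from separate animals, p-values would measure technical spread only.

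Genes were tested with edgeR 4.0.16 in R 4.3.3 (TMM, filterByExpr, robust quasi-likelihood F test, two-sided, Benjamini-Hochberg adjustment over 10522 genes, threshold 0.05). Intervals are 95%. Ratios and correlations used log2 CPM with a prior count of 2 and exact permutation. Beside the members, the text names Pax3, Mymk, Myh3, Myh8, Chrng, Mki67, the 3 genes with the smallest p in each pathway list and the 3 most correlated genes of each member. Chrnb1, Cav3, Sln, Cacna1s and Des were picked from the 35 muscle genes after values had been seen. Cd34, Myl7 and Ucp1 are named because they were at 0 in every library. Members and lists were chosen with earlier results of these data known. Among the deposited symbols 25 had been turned into dates, and none of these is named. Older symbols were matched through RefSeq. Listed genes with no matching row were left out. Examples are Mef2c and Ep300 among the partners, Mymx among the fusion genes, and Ryr1 and Neb among the fibre markers. The procedure was tested on simulated counts with 200 changed genes and the spread of the trend over all genes. It recovered 18.8% of 1.5-fold, 78.6% of 2-fold and 98.3% of 3-fold changes, with 3 false calls. These shares are pooled over genes of all levels. Myog and Myod1 had more spread than that trend, so the shares do not hold for them. They cannot be read onto Pax7 either, which had 5 to 35 reads a library. Alternatives were RLE or total scaling, no filter, 1 CPM in 4 libraries, DESeq2 1.42.0, limma-voom (limma 3.58.1), no robust estimation, a term for animal number range, a threshold of 0.1, a prior count of 0.5 and leaving out each library. Alternatives for the relations of Myog and Myod1 with muscle genes were added after seeing the data.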

Additional observations from a re-analysis of the deposited data

Results flagged for a closer look

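In groups of 4 animals, 5 of 58 groups (29 genes in MI and in Sham) held a library that stood apart from the other 3 by Dixon's ratio of gap to range, past its 95% critical value. In independent groups chance gives about 1 in 20. These groups share libraries, and many of the genes were picked by a small p in these data, so the count is a description only. No member of the family was among them. Tmem8c (Mymk) was at 1.53 CPM in MI replicate 2 and at most 0.169 in the other MI libraries (ratio 0.889). Sdc3 was at 11.7 CPM in MI replicate 2 against at most 8.08 in the other MI libraries (0.909), and Met at 14.9 CPM in MI replicate 4 against at most 12.4 (0.832). Jam2 was at 55.5 CPM in Sham replicate 8 against at least 63.8 in the other Sham libraries (0.848), and Trim63 at 359 CPM in Sham replicate 6 against at most 323 (0.891).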

How the results depend on the processing

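No paired analysis was possible because the replicate numbers 1 to 8 are not shared between the groups. With all libraries, 0 genes passed in either direction in each edgeR and limma-voom alternative, also at a threshold of 0.1, while DESeq2 called 9 higher and 5 lower. With a library left out, 0 to 1 genes were higher (1 without MI replicate 1 or 3) and 0 lower, 208 to 461 were higher and 306 to 629 lower at an unadjusted p under 0.05 (386 and 470 with all libraries), both lowest without Sham replicate 7, and 254 were higher without MI replicate 4. With a term for animal number range, 308 were lower at that threshold.

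Pax7, Myod1 and Myf6 kept a log2 fold change below 0 under each alternative in which they were tested (Pax7 failed the filter of 1 CPM in 4 libraries), and no member passed under any. Leaving out libraries gave -0.064 to 0.202 for Myf5, -0.351 to 0.183 for Myog, -0.14 to 0.169 for Myh3 and -0.501 to 0.023 for Myh8. The animal number range as a term turned Myf5 (-0.015) and Myh3 (0.038), and the cause was not tested. The log2 ratio of Myod1 to Pax7 turned with a prior count of 0.5 (0.03) and ran from -0.244 to 0.204 with libraries left out. Correlations with libraries left out ran from -0.53 to 0.209 for Pax7 with Myf5, -0.554 to 0.275 for Pax7 with Myog, -0.4 to 0.298 for Pax7 with Myf6, -0.611 to 0.018 for Myf5 with Myod1, -0.354 to 0.337 for Myf5 with Myf6, -0.18 to 0.496 for Myod1 with Myog and -0.271 to 0.446 for Myog with Myf6. Myf5 with Myf6 was -0.005 with library totals alone and Pax7 with Myf6 -0.297 on deviations from the group means. Depth limits genes with few reads: 3 reads correspond to 0.116 to 0.369 CPM, and a library held 5 to 35 reads of Pax7 and 0 to 25 of Mymk.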
